A study of Mus musculus with 120 samples.

Results

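Muribaculaceae sequence variants were followed through the intestinal contents of C57BL/6N mice kept under 5 light cycles, on chow or with antibiotics. A sequence variant is one distinct sequence of the bacterial 16S rRNA gene, read here on a long-read platform and counted in each library. The members were all variants whose taxonomy row gave the family as Muribaculaceae: 3150 of the 13844 variants in the count table (22.8%), all of them in the order Bacteroidales. The family name rested on the taxonomy table alone, because no sequences were analysed here. Variants are called Mur1 to Mur3150 by their mean share of counts over all samples, with the first 8 characters of their identifier given for most of those named.

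Mice were 10 weeks old at the start, were acclimatised for 7 days, were housed singly and stayed 42 days under their light cycle. The light cycles were LD0/24 (0 h light and 24 h dark), LD8/16, LD12/12, LD16/8 and LD24/0. Chow mice had sterilised, irradiated feed, and antibiotics mice had the same feed with a mixture of broad-spectrum antibiotics in the drinking water. Each combination of site (colonic or cecal content), diet and light cycle had 6 libraries, except 5 for the colon with antibiotics under LD8/16 and 7 for the cecum on chow under LD8/16. The labels do not tie a library to a mouse, so it is not known whether a colon and a cecum library came from the same animal, and p-values measure the spread between these libraries.

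Muribaculaceae, in the phylum that also holds Bacteroides and Parabacteroides, is one of the main families of the mouse gut. Its members are known for breaking down plant and host glycans and for making short-chain fatty acids. Few of them have been cultured, Muribaculum intestinale among the first, so most sequences of the family carry no genus name. That was the case here: 3121 of the 3150 variants were unclassified at genus level, 27 were Muribaculum (6 of them Muribaculum intestinale) and 2 were Paramuribaculum.

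The 120 libraries held between 39157 and 73076 counts each. Replicates 5 and 6 of colon chow LD24/0 were compared over variants counted in both libraries, from a given summed count. From 200 counts they agreed within sampling noise (chi-square test, 50 variants, p = 0.607, 0.933 per degree of freedom). The next closest of the 4621 pairs had 10.1 per degree of freedom. From 10 counts replicates 5 and 6 did differ (chi-square test, 279 variants, p = 1.17e-17, 1.90 per degree of freedom), as they did from 50 counts (145 variants, p = 1.55e-21). Variants absent from replicate 5, which these tests leave out, held 11.3% of the counts of replicate 6. Over the Muribaculaceae variants alone, from 10 counts, the same chi-square test on 63 variants gave p = 0.113. It leaves out the members seen in only 1 library of the pair, which reached 26 counts in replicate 5 and 47 in replicate 6. The pair was counted as 1 sample, which left 119 samples. Low-level variants of 20 genera (background genera) were shared by libraries of different groups. In 86 samples they made up at least 0.5% of counts. Clustering by how alike their levels were sorted those samples into 11 sets of 7 to 8 libraries. Branches were split until they held at most 8 libraries, so the upper size of a set was a setting. Sets 1 to 3 held colon chow libraries, sets 6 to 8 colon antibiotics libraries and sets 9 to 11 cecum antibiotics libraries. Set 4 held colon chow with cecum antibiotics libraries and set 5 held both diets of the colon. No cecum chow library was in a set, so diet in the cecum, and site on either diet, cannot be told apart from set.

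On chow the family was a large and very uneven part of the community. In the colon the lowest share was 3.01%, the median 20.8% and the highest 55.5% of counts (mean 19.6% ± 13.5, SD, n = 29). In the cecum the lowest was 1.27%, the median 16.0% and the highest 33.3% (mean 16.6% ± 9.64, SD, n = 31). Mice of 1 group differed widely: under LD12/12 the colon held 4.44% in the lowest and 55.5% in the highest sample, and under LD8/16 the cecum held 1.27% and 33.3%. With antibiotics all samples lay below the lowest chow sample. The colon then held 0.157% in the lowest, 0.341% in the median and 0.555% in the highest sample (mean 0.332% ± 0.102, SD, n = 29). The cecum held 0.0739%, 0.253% and 0.559% in the same order (mean 0.259% ± 0.130, SD, n = 30).

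**Figure D1:**
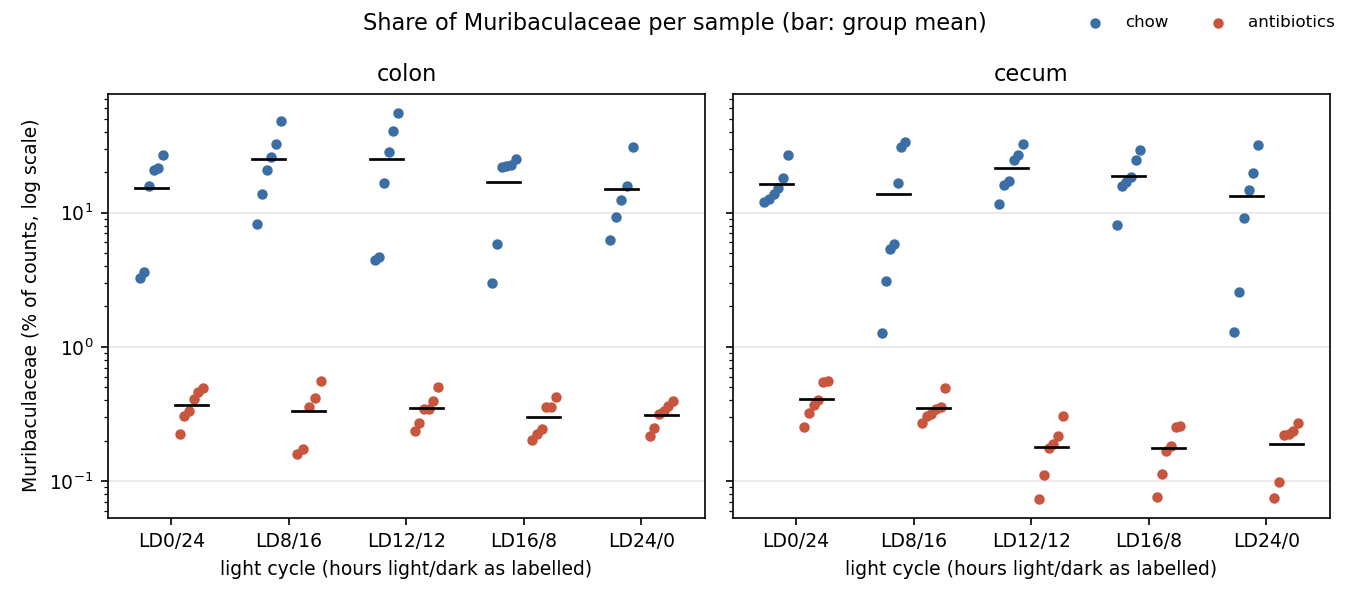
Share of Muribaculaceae in each sample (% of counts, log scale) by light cycle, for colon and cecum, on chow and with antibiotics. Points are samples and bars are group means. All antibiotics samples lie between 0.0739% and 0.559%, below all chow samples, which lie between 1.27% and 55.5%.

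The share of the family fell by 5.83 ± 0.28 (log2, SE) in the colon with antibiotics (edgeR quasi-likelihood test, adjusted p = 1.92e-27), a 56.8-fold lower share. In the cecum it fell by 6.07 ± 0.33 (log2, SE; edgeR quasi-likelihood test, adjusted p = 3.86e-27), a 67.3-fold lower share. The size depends on the scaling: the change was -3.68 in the colon and -5.46 in the cecum with TMMwsp factors, -3.84 and -5.25 with DESeq2, and -3.71 and -5.73 on centred log-ratios (log2), all called. Set 5 was the only set with both diets of the colon: its 2 chow libraries held 6.25% and 12.3%, and its 5 antibiotics libraries between 0.157% and 0.555%. Calls between diets were common: 74.6% of the 118 families tested in the colon and 89.7% of the 116 tested in the cecum passed. The difference of the antibiotics effect between the sites was -0.26 ± 0.35 (log2, SE) and did not pass (edgeR quasi-likelihood test, adjusted p = 1.00), where 32.4% of 139 families did. With other scalings this difference did pass, at -1.76 with TMMwsp factors (edgeR, adjusted p = 0.000254) and -1.74 on centred log-ratios (limma, adjusted p = 7.24e-06). The median change over all families was -2.65 in the colon and -0.26 in the cecum (log2). Counts give shares of a library, so a loss of Muribaculaceae and a gain of other bacteria cannot be told apart.

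The named genera followed the family. Unclassified Muribaculaceae made up nearly all of it, with 19.5% ± 13.4 of counts in the colon (SD, n = 29) and 16.6% ± 9.59 in the cecum on chow (SD, n = 31). Muribaculum, the genus of the first cultured species, was seen in 21 of 29 colon and 25 of 31 cecum samples on chow, at means of 0.0606% and 0.0665%. With antibiotics it was seen in 3 of 29 colon and 4 of 30 cecum samples. Its share fell by 6.21 ± 0.84 (log2, SE) in the colon (edgeR quasi-likelihood test, adjusted p = 1.46e-09) and fell by 5.97 ± 0.83 in the cecum (edgeR quasi-likelihood test, adjusted p = 1.49e-09). In these fits 80.7% of 275 genera passed in the colon and 91.5% of 271 in the cecum. Paramuribaculum was seen in 1 colon and 1 cecum sample on chow and in none with antibiotics, too few for a test.

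The number of variants fell with the share, but less steeply. A colon chow sample held 37 variants at the lowest, 134 at the median and 427 at the highest, and a cecum chow sample 38, 147 and 338. With antibiotics the colon held 8, 17 and 23, and the cecum 6, 15 and 28. At a common depth of 53336 counts the number fell by 2.98 ± 0.19 in the colon (log2 of the number plus 1, SE; limma, adjusted p = 8.18e-22) and by 3.19 ± 0.19 in the cecum (limma, adjusted p = 1.45e-25). That depth is of the whole library, so the family kept far fewer counts with antibiotics than on chow. A lower number thus follows in part from the lower share, and a change beyond it was not tested. The median change over all families was -0.35 in the colon and -0.01 in the cecum, and 69.0% of 126 and 86.1% of 122 families passed. The family made up 22.0% of all variants in a colon chow sample and 8.70% in a colon antibiotics sample, and 23.5% and 6.31% in the cecum (means).

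**Figure D2:**
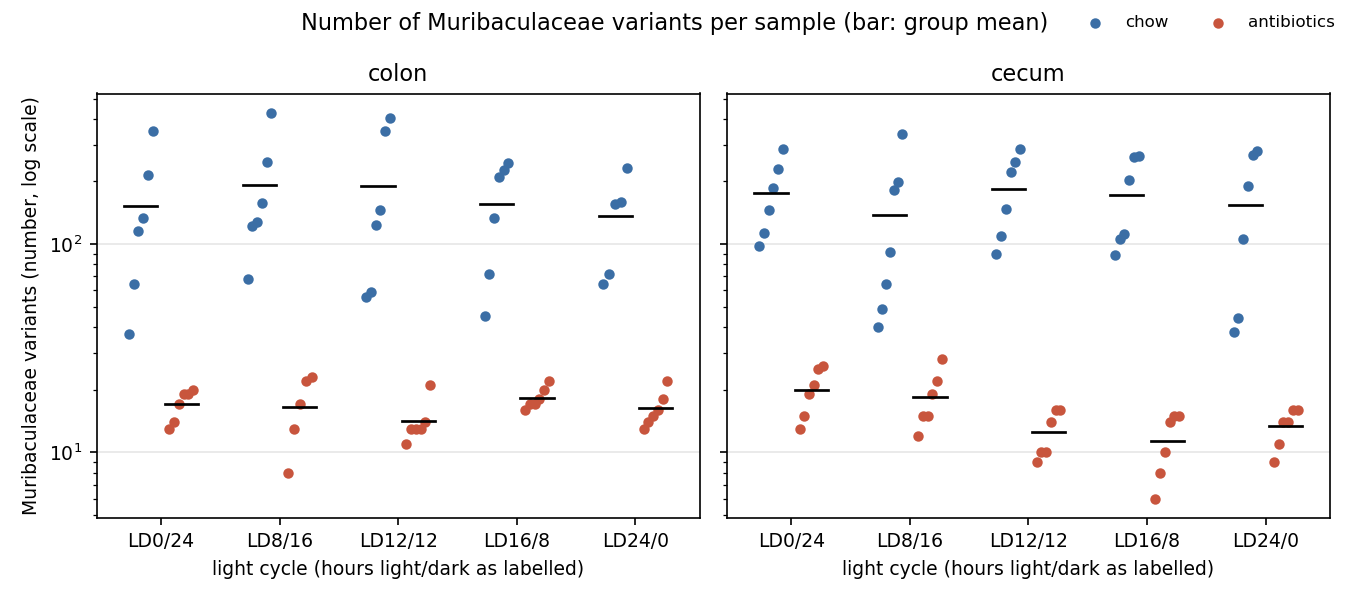
Number of Muribaculaceae variants seen in each sample (log scale) by light cycle, for colon and cecum, on chow and with antibiotics. Points are samples and bars are group means. Chow samples hold 37 to 427 variants and antibiotics samples 6 to 28.

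Few variants carried most of the family, as in the table as a whole. Of the 3150 variants, 2102 (66.7%) were seen in 1 sample only, and together they held 2.70% of the family's counts. Such private variants had a median count of 5 and a highest count of 141. At the other end 69 variants were seen in 30 or more samples and held 82.1% of the counts, and 13 variants were seen in all 20 groups and held 46.7%. Over all 13844 variants, 386 were seen in 30 or more samples, with 86.9% of counts. Of these 13844, 47 were seen in all 20 groups, with 41.0% of counts. Over all variants of the table the private share was 67.1%, and in Rikenellaceae, another Bacteroidales family, 67.7%. Lachnospiraceae, a large family of Clostridia, had 74.4%. Private variants held 1.70% of counts over all variants, 2.59% in Rikenellaceae and 9.95% in Lachnospiraceae.

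**Figure D3:**
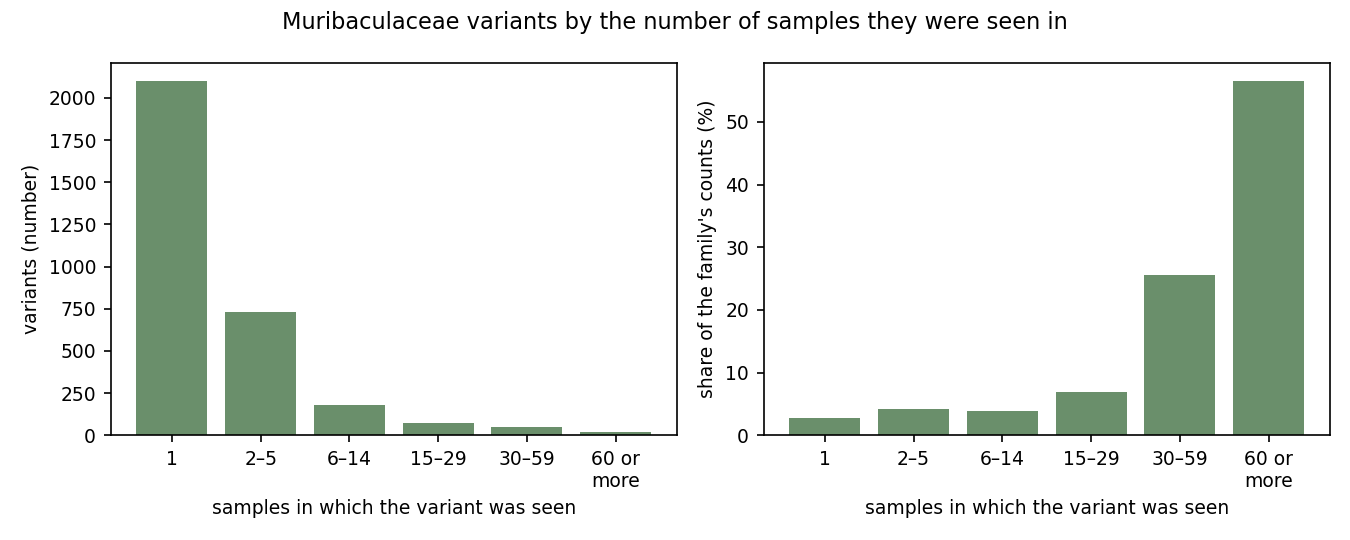
Muribaculaceae variants grouped by the number of samples in which they were seen. The left panel gives the number of variants and the right panel their share of the family's counts (%). The 2102 variants seen in 1 sample hold 2.70% of the counts, while the 20 variants seen in 60 or more samples hold 56.6%.

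Private variants were mostly found in chow samples. A colon chow sample held between 0 and 160 of them, with a median of 22, and a cecum chow sample between 1 and 108, with a median of 31. Antibiotics samples held at most 3. Of the 1031 variants seen in 2 or more chow samples, 201 were seen in all 5 light cycles and held 90.3% of the family's counts. Another 80 of the 1031 were limited to 1 light cycle, and these held 0.423% of the counts. Over all variants 886 of 4006 were seen in all 5 light cycles, with 89.9% of counts, and 385 were limited to 1, with 0.382%.

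Chow samples shared a minority of their variants. In the colon a pair of samples shared a median of 46 variants, both within a light cycle (70 pairs) and between light cycles (336 pairs). Their Bray-Curtis distance over the make-up of the family, where 0 is identical and 1 shares nothing, averaged 0.540 within and 0.537 between light cycles. In the cecum the averages were 0.611 (81 pairs) and 0.607 (384 pairs). Colon and cecum samples of the same light cycle and replicate number averaged 0.571 (29 pairs), and those with different numbers 0.588 (151 pairs). These distances share samples between pairs and are given without a test.

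The leading variant was Mur1 (2786a393), which made up 15.1% of the family's mean share on chow and 15.3% with antibiotics. In colon chow samples it held 0.0422% of counts at the lowest, 2.14% at the median and 16.1% at the highest. In cecum chow samples it was seen in 30 of 31, with a median of 1.04% and a highest value of 8.36%. With antibiotics it was seen in 26 of 29 colon samples (median 0.0405%, highest 0.146%) and 29 of 30 cecum samples (median 0.0345%, highest 0.108%). The ranges of the 2 diets thus overlapped for this variant, unlike those of the family. Mur1 fell by 6.16 ± 0.59 in the colon (log2, SE; edgeR quasi-likelihood test, adjusted p = 8.23e-15) and by 5.58 ± 0.73 in the cecum (edgeR quasi-likelihood test, adjusted p = 5.36e-10).

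Mur2 (3ca53903) was the most widespread variant, seen in 118 of 119 samples. In the colon it held 0.195% at the lowest, 1.16% at the median and 6.35% at the highest on chow, against 0.0133%, 0.0340% and 0.0662% with antibiotics, with no overlap. In the cecum the chow values were 0.0438%, 1.33% and 4.08%, and the antibiotics samples held 0%, 0.0313% and 0.0705%. The ranges of the diets overlapped there. Mur2 fell by 5.33 ± 0.46 in the colon (log2, SE; edgeR quasi-likelihood test, adjusted p = 8.03e-17) and fell by 5.41 ± 0.59 in the cecum (edgeR quasi-likelihood test, adjusted p = 1.40e-12).

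Mur3 (29d41f77) was high in a few samples only. On chow its median was 0.153% in the colon and 0.0601% in the cecum, but its highest values were 13.9% and 4.54%. With antibiotics its medians were 0.0417% and 0.0260%. Its means with antibiotics were 4.10% of the chow mean in the colon and 5.40% in the cecum, and the few high samples weigh on the chow means. It made up 4.09% of the family's mean share on chow and 11.4% with antibiotics. Its fall was 4.10 ± 0.80 in the colon (log2, SE; edgeR quasi-likelihood test, adjusted p = 5.67e-06) and 3.39 ± 0.93 in the cecum (edgeR quasi-likelihood test, adjusted p = 0.000525).

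Mur4 (af70d3a4), Mur6 (541aebf4), Mur8 (878fd5ad) and Mur10 (0a54ec06) completed the leaders that stayed among the 8 highest variants with antibiotics. Their colon means on chow were 0.587%, 0.516%, 0.584% and 0.304% of counts. With antibiotics they kept 3.32%, 2.91%, 3.11% and 2.85% of that level. Mur5 (8d4c73fc), higher in the cecum (0.865%) than in the colon (0.403%) on chow without a called difference (edgeR quasi-likelihood test, adjusted p = 0.315), kept 0.886% in the colon and 0.626% in the cecum. Mur9 (7d1ba5fd) kept 1.36% and 1.68%, Mur11 (a1d51359) 1.11% and 2.64%, and Mur12 (eededa88) 0.397% and 0.598%.

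Mur7 (14f378d0) was nearly absent with antibiotics. On chow it was seen in 23 of 29 colon samples, with a median of 0.336% and a highest value of 1.71%, and in 16 of 31 cecum samples, with a highest value of 1.73%. With antibiotics it was seen in 1 of 29 colon samples, at 0.00489%, and in 0 of 30 cecum samples. It fell by 10.70 ± 0.94 in the colon (log2, SE; edgeR quasi-likelihood test, adjusted p = 2.19e-16), and passed in the cecum as well (edgeR quasi-likelihood test, adjusted p = 1.32e-09). Mur7 met the filter through its chow samples, so the direction was set beforehand and these values are a description. The size of the fall rests on a group with almost no counts. Mur26 (f4d1d702) and Mur23 (cafd4063) followed the same pattern from lower chow means of 0.162% and 0.221% in the colon. They were seen in 1 and 2 of 29 colon antibiotics samples, after 25 and 27 of 29 on chow. Mur25 (bd30d852) kept 1.69% of its chow level in the colon and 0.597% in the cecum.

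Nearly all members that could be tested fell with antibiotics. In the colon 211 of the 3150 variants passed the filter of at least 3 counts in 5 samples; 204 of these were called lower (96.7%) and 3 higher, where 76.8% of all 1211 variants tested were called lower and 10.1% higher. In the cecum 216 passed the filter; 213 were called lower (98.6%) and 1 higher, where 71.4% and 23.6% of 1246 variants were. The median change was -5.13 for members and -4.13 for all variants in the colon, and -5.08 and -3.89 in the cecum (log2). A member usually passes the filter through its chow samples, so these counts are a description. DESeq2 called 92 lower and 2 higher in the colon, and 104 lower and 1 higher in the cecum. Among the 62 members counted at least once on both diets in the colon 56 were lower, where 320 of 547 variants were, and in the cecum 56 of 59, where 308 of 440 were.

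Members seen with antibiotics were mostly the abundant ones. In the colon 68 of the 1871 variants seen on chow (3.63%) were also seen with antibiotics, and in the cecum 63 of 2018 (3.12%). Over all variants the shares were 9.74% and 6.64%. For Lachnospiraceae they were 9.04% and 6.70%, and for Rikenellaceae 14.3% and 4.17%. The variants seen again held 77.2% of the family's chow share in the colon and 71.8% in the cecum, and 9 of the 10 highest chow variants were among them at either site. Over all variants, those seen again held 82.5% of the chow share in the colon and 78.4% in the cecum. All of the 10 highest of the whole table were among them at either site.

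The depth limits what can be read from this. The smallest count in the table is 2, which is 0.00323% of the median colon antibiotics library. At the family's own ratio of 1.70% between antibiotics and chow, a variant would need a chow level of 0.190% to reach 2 counts in such a library. In the colon 22 variants were at or above this level and 21 of them were seen with antibiotics, against 47 of the 1849 below it. In the cecum 18 of 19 were seen, against 45 of 1999. The exceptions were Mur7 in the cecum and Mur14 (734a07c5) in the colon, a variant singled out after its values were seen. Mur14 had a mean of 0.416% over the colon chow samples, was present in 17 of 29 and reached 4.72% in 1 of them. The level refers to 1 library, and a variant was looked for in 29 or 30, so a variant somewhat under it could still be seen in some of them. For variants far under it, not being seen with antibiotics says little at this depth.

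**Figure D4:**
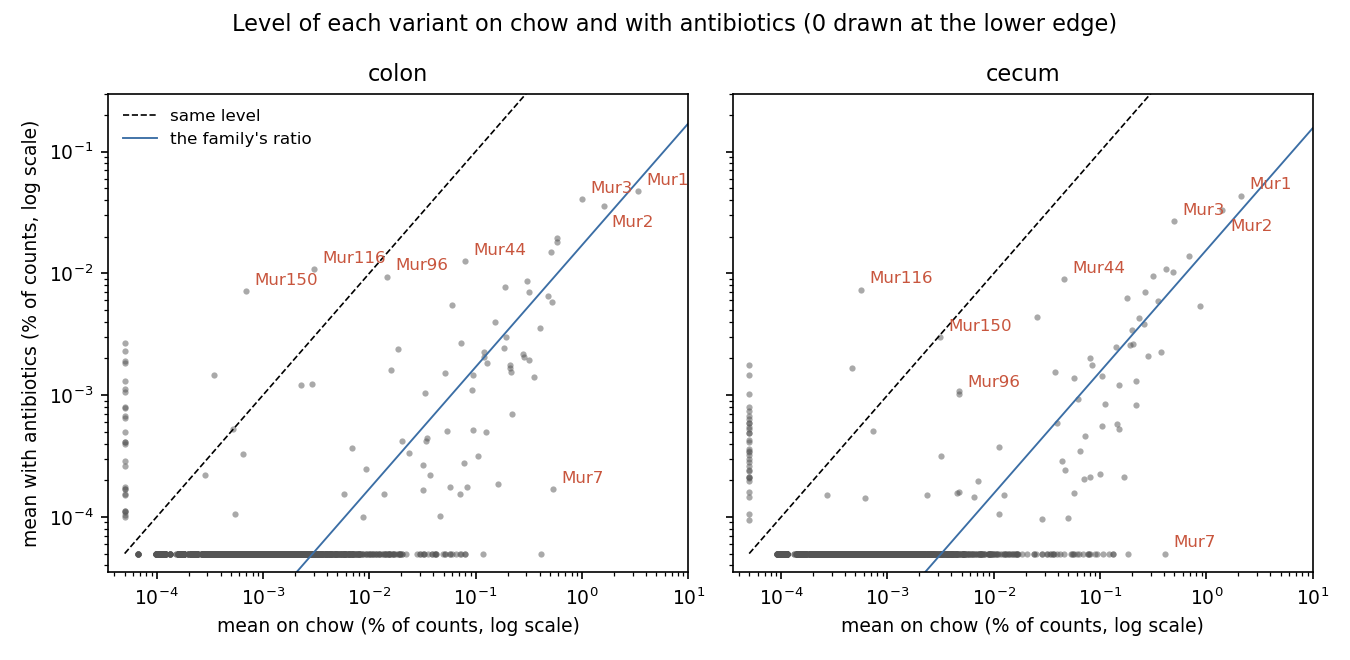
Mean level of each Muribaculaceae variant on chow (x axis) and with antibiotics (y axis), both in % of counts on log scales, for colon and cecum. Each point is 1 variant, and a mean of 0 is drawn at the lower or left edge. The dashed line marks equal levels and the solid line the ratio of the whole family, 1.70% in the colon and 1.56% in the cecum; Mur116 lies above the dashed line at both sites and Mur150 in the colon.

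Variants differed in the part of their chow level that was left. The 65 variants seen in at least 15 colon chow samples kept a median of 0.544% of their chow level, counting those not seen again as 0. In the cecum the median over 68 such variants was 0.361%. Over those seen with antibiotics alone it was 1.24% in the colon (44 variants, quartiles 0.508% and 2.34%) and 1.52% in the cecum (39 variants, quartiles 0.612% and 2.38%). None of them exceeded its chow level. Over the 55 variants seen in at least 15 chow samples at both sites, the ratios in colon and cecum correlated with a Spearman rho of 0.795, given as a description. The colon and cecum samples of 1 diet may come from the same mice, and the ratio at either site rests on the same few counts with antibiotics. The highest ratios belonged to Mur44 (ec4f30dc), which kept 15.6% of its chow level in the colon and 19.6% in the cecum. Mur44 fell by 2.66 ± 0.85 in the colon (log2, SE; edgeR quasi-likelihood test, adjusted p = 0.00309) and by 2.40 ± 0.89 in the cecum (edgeR quasi-likelihood test, adjusted p = 0.00912).

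A few rare variants were seen in more samples with antibiotics than on chow. They entered the test mainly or wholly through the antibiotics samples, so their values are a description. Mur116 (0799dcf0) was seen in 4 of 29 colon and 1 of 31 cecum samples on chow, and in 18 of 29 and 15 of 30 with antibiotics. Its mean went from 0.00300% ± 0.00778 to 0.0108% ± 0.0116 in the colon (SD) and from 0.000565% ± 0.00315 to 0.00735% ± 0.00895 in the cecum (SD). Mur150 (e60a1b18) was seen in 1 of 29 colon samples on chow and 14 of 29 with antibiotics. In the cecum it was seen in 3 of 31 and 9 of 30 samples, and it did not pass (edgeR quasi-likelihood test, adjusted p = 0.457). Mur588 (fd81d17e) was seen in 0 of 29 colon chow and 5 of 29 colon antibiotics samples. Mur486 (2690f02d) stood at an adjusted p of 0.148 in the colon (edgeR quasi-likelihood test). None of the 4 exceeded a mean of 0.0108% of counts with antibiotics.

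The low levels with antibiotics have to be read beside the background that libraries share. In the near-identical pair of colon chow LD24/0, background genera made up 0.0664% of counts in replicate 5 and 2.59% in replicate 6. Mur1 had 0 counts in replicate 5 and 44 in replicate 6, which is 0.0675% of that library and above its median of 0.0405% in the colon with antibiotics. The family had 61 variants in replicate 6 only, with 0.897% of that library's counts, and 28 in replicate 5 only, with 0.485%. Replicate 6 was the deeper library, with 65202 counts against 39157. Of the 61, 6 were seen in some antibiotics sample, and of the 28, 2 were. In the cecum with antibiotics, 2 libraries of LD24/0 had almost no background genera (0.0303% at the lowest) and held the family at 0.220% and 0.234%. Sets 6 to 11 consisted of antibiotics libraries alone. The family held between 0.200% and 0.504% in sets 6 to 8 (colon) and between 0.0739% and 0.490% in sets 9 to 11 (cecum). Cecum antibiotics libraries of LD0/24 averaged 0.450% in set 4, which also held colon chow libraries, and 0.328% in set 9. In set 5, with chow libraries, colon antibiotics libraries held 0.157% to 0.555%. How much of the level with antibiotics came from other libraries was not tested.

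On chow the share of the family did not pass a test between colon and cecum. It was 0.21 ± 0.29 lower in the cecum (log2, SE), which did not pass (edgeR quasi-likelihood test, adjusted p = 0.587), where 49.6% of 115 families did. The direction turned with the scaling: it was 0.29 higher with TMMwsp factors, 0.61 higher and called with DESeq2 (adjusted p = 0.0344) and 0.99 higher and called on centred log-ratios (limma, adjusted p = 0.00507). The number of variants differed by 0.05 ± 0.24 (log2, SE; limma, adjusted p = 0.865), where 48.8% of 125 families passed. Mean levels at the 2 sites correlated across the 193 variants seen in 10 or more chow samples with a Spearman rho of 0.889, given as a description. None of the 12 leading variants differed between the sites on chow (edgeR quasi-likelihood test, lowest adjusted p = 0.315, for Mur5).

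Variants called between the sites on chow were rare ones. Of 358 members tested, 27 were called higher (7.54%) and 18 lower (5.03%) in the cecum, where 8.64% and 17.3% of 1701 variants were. The 45 called variants were seen in a median of 6 of the 60 chow samples, and none had a mean above 0.0632% at either site. Variants seen at 1 site alone entered the test only through that site, so their presence is given as a description. Mur298 (4165844c) was seen in 5 of 31 cecum and 0 of 29 colon samples. Mur411 (56203a64) and Mur920 (b01e6a70) were also seen in 5 cecum samples and no colon sample, and Mur398 (4b81d683) in 6 and none. In the other direction Mur201 (80a4fc96) was seen in 8 colon samples and no cecum sample. Mur285 was seen in 6 colon samples and 1 cecum sample, Mur287 (4192a1b0) in 4 and 1, and Mur334 (99712130) in 5 and 1. DESeq2 called 4 of the 358, all higher in the cecum.

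With antibiotics the family was slightly lower in the cecum than in the colon, by 0.47 ± 0.18 (log2, SE; edgeR quasi-likelihood test, adjusted p = 0.0248), where 50.4% of 115 families passed. The ranges overlapped widely, from 0.157% to 0.555% in the colon and from 0.0739% to 0.559% in the cecum. The number of variants did not pass (limma, adjusted p = 0.191), where 43.4% of 122 families did. The call on the share was lost without the filter on low counts (edgeR, adjusted p = 0.116). It was kept at -0.88 with TMMwsp factors (edgeR, adjusted p = 8.11e-05), -0.78 with DESeq2 (adjusted p = 2.38e-05) and -1.09 on centred log-ratios (limma, adjusted p = 1.04e-06). These scalings also moved the median of all families, from -0.02 to -0.47, -0.39 and -0.67 in that order (log2). Of 38 members tested, 0 were called higher by edgeR in the cecum (7 members had an unadjusted p under 0.05 in either direction, and DESeq2 called 0) and 6 lower (15.8%), where 31.3% and 15.7% of 598 variants were. Mur17 (0efcbd17) was seen in 6 of 29 colon and 1 of 30 cecum samples, Mur43 (c3560148) in 7 and 1, and Mur918 (3a5bc18a) in 4 and 1. They entered the test almost wholly through the colon, so these numbers are a description. Mur34, Mur24, Mur15 and Mur12 leaned towards the cecum with adjusted p values from 0.0957 to 0.448 (edgeR quasi-likelihood test).

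Mur96 (fabb8e00) was among the 6 called lower in the cecum, and its presence followed the sets of libraries. It was seen in 18 of 29 colon and 4 of 30 cecum samples with antibiotics. By light cycle in the colon it was seen in 5 of 6 samples of LD0/24, 3 of 5 of LD8/16, 0 of 6 of LD12/12, 4 of 6 of LD16/8 and 6 of 6 of LD24/0 (edgeR quasi-likelihood test of any light cycle, adjusted p = 0.0249). By set it was seen in 8 of 8 libraries of set 7, 7 of 8 of set 6 and 0 of 8 of set 8. Set 8 held all of LD12/12 and 2 libraries of LD16/8, and with the set as a block this call was lost. That fit could not test LD8/16, whose libraries shared no set with another antibiotics group.

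No light cycle effect on the family's share passed on chow. In the colon the group means were 15.3% ± 9.87 under LD0/24, 24.9% ± 14.4 under LD8/16, 25.1% ± 20.5 under LD12/12, 16.8% ± 9.69 under LD16/8 (SD, n = 6 each) and 14.9% ± 9.63 under LD24/0 (SD, n = 5). In the cecum they were 16.5% ± 5.65, 13.7% ± 13.4, 21.5% ± 7.89, 18.9% ± 7.35 and 13.2% ± 11.6 in the same order (SD, n = 7 for LD8/16 and n = 6 otherwise). The ranges of the groups overlapped at both sites. The test of any light cycle did not pass in the colon (edgeR quasi-likelihood test, adjusted p = 0.813), where 26.5% of 98 families passed, or in the cecum (adjusted p = 0.878), where 21.8% of 87 did. Against LD12/12 the cecum under LD24/0 differed by -0.70 ± 0.69 (log2, SE; edgeR quasi-likelihood test, adjusted p = 0.691), with a 95% interval from -2.05 to 0.65, where 12.6% of families passed. On centred log-ratios this contrast passed at -1.94 (limma, adjusted p = 0.0419). Numbers of variants did not pass either, at adjusted p values of 0.978 in the colon and 0.808 in the cecum (limma), where 23.5% of 102 and 13.8% of 94 families did.

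Single variants called for light cycle on chow were again sparse. In the colon 7 of 206 members passed (3.40%), where 13.6% of 1044 variants did, and in the cecum 15 of 212 (7.08%), where 19.0% of 925 did. All 22 were missing from at least 1 light cycle. The 7 were seen in 5 to 11 of 29 colon samples, and the 15 in 5 or 6 of 31 cecum samples. A variant seen in 5 or 6 samples passed the filter through the light cycles where it was present, so these calls are given as a description. In the cecum Mur221 was seen in 5 samples, all of LD24/0. Mur522 was seen in 4 samples of LD0/24 and 1 of LD12/12. Mur328 was seen in 3 of LD12/12 and 2 of LD24/0, and Mur74, Mur105 and Mur368 were each seen in 3 light cycles. In the colon Mur246 was seen in 3 samples of LD8/16 and 2 of LD16/8. Mur121, Mur65, Mur159 and Mur73 were seen in 3 light cycles each, and Mur27, the most frequent, in 4. DESeq2 called none of the members at either site, with 30 unadjusted p-values under 0.05 by edgeR in the colon and 34 in the cecum.

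With antibiotics no light cycle effect on the share passed. In the cecum the high and the low light cycles shared no set, so light cycle and set cannot be told apart there. In the colon the group means lay between 0.301% under LD16/8 and 0.371% under LD0/24 (edgeR quasi-likelihood test, adjusted p = 0.981), where 30.8% of 78 families passed. The number of variants did not pass there (limma, adjusted p = 0.689), where 19.3% of 88 families did. In the cecum the lowest, median and highest values were 0.254%, 0.386% and 0.559% under LD0/24, and 0.270%, 0.330% and 0.490% under LD8/16. They were 0.0739%, 0.182% and 0.305% under LD12/12, 0.0755%, 0.174% and 0.259% under LD16/8, and 0.0749%, 0.223% and 0.270% under LD24/0. LD0/24 and LD8/16 were thus high and the other groups low, with some overlap. The test of any light cycle did not pass (edgeR quasi-likelihood test, adjusted p = 0.0934), where 11.4% of 88 families did. LD0/24 was 1.20 ± 0.46 and LD8/16 0.96 ± 0.46 higher than LD12/12 (log2, SE; edgeR quasi-likelihood test, adjusted p = 0.137 and 0.259), where 2.27% and 9.09% of families passed. Without LD24/0 replicate 5 or replicate 6, the libraries in no set, the test of any light cycle passed (edgeR, adjusted p = 0.0392 and 0.0480).

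The number of variants in the cecum with antibiotics passed the same test (limma, adjusted p = 0.0407), where 13.8% of 94 families did. This number depends on the share, and whether it differed beyond the share was not tested. Its means were 19.8 ± 5.23 under LD0/24 and 18.5 ± 5.82 under LD8/16, against 12.5 ± 3.21 under LD12/12, 11.3 ± 3.88 under LD16/8 and 13.3 ± 2.80 under LD24/0 (SD, n = 6 each). The libraries of LD0/24 and LD8/16 all lay in sets 4 and 9, and those of the other groups in sets 10 and 11 or in none. No set joined the high groups with the low ones, so light cycle and set cannot be told apart there. With the set as a block the adjusted p was 0.985 (limma). Within set 10 the mean share was 0.179% under LD12/12 (6 libraries) and 0.186% under LD16/8 (2 libraries). Of 25 members 0 were called by edgeR for light cycle in the cecum with antibiotics, where 33.8% of 402 variants were; 1 had an unadjusted p under 0.05, and DESeq2 called 0.

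**Figure D5:**
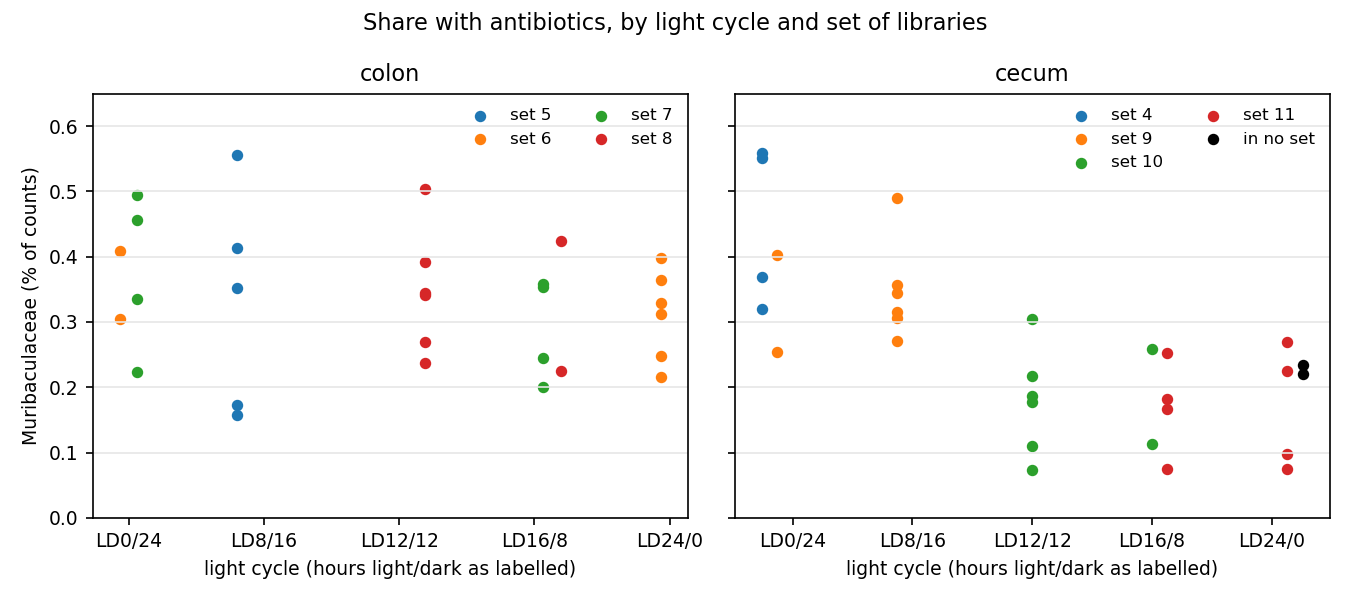
Share of Muribaculaceae with antibiotics (% of counts) by light cycle, for colon and cecum, with each point a sample coloured by its set of libraries. In the cecum the samples of sets 4 and 9, which hold LD0/24 and LD8/16, lie between 0.254% and 0.559%, and those of sets 10 and 11 between 0.0739% and 0.305%.

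In the colon with antibiotics 3 of 27 members were called for light cycle (11.1%), where 29.4% of 306 variants were. They were Mur96, Mur41, seen in 3 samples of LD0/24 and 2 of LD12/12, and Mur33, seen in 3 of LD8/16, 2 of LD16/8 and 1 of LD24/0. None of the 3 was called with the set as a block. All LD8/16 libraries lay in set 5, which held no other antibiotics group, so that fit could not test LD8/16. LD12/12 shared a set only with 2 libraries of LD16/8. The lost calls thus do not tell light cycle and set apart. Whether the light cycle effect differed between diets was tested over the 5 groups at each site. It did not pass in the colon (edgeR quasi-likelihood test, adjusted p = 1.00), where 18.6% of 118 families did, or in the cecum (adjusted p = 0.329), where 9.48% of 116 did. In the cecum it passed with TMMwsp factors (edgeR, adjusted p = 0.0403) and with DESeq2 (adjusted p = 0.0123).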

How the data were processed

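Bacterial 16S rRNA gene libraries of colonic and cecal content were used as the authors deposited them, as raw counts of reads per sequence variant in each library with a table of taxon names. Per the labels' protocols, DNA came from a stool kit and the libraries were long-read SMRTbell libraries. The smallest count above 0 in the table is 2. Of the denoiser, primers, classifier and database nothing was stated in the labels or headers used.

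Counts were summed by family, by genus or kept per variant and fitted over the whole table with edgeR 4.0.16 (quasi-likelihood test, library size as total count, no composition factor, features with at least 3 counts in at least 5 samples) in R 4.3.3. Numbers of variants were computed for a depth of 53336 counts of the whole library and fitted over all families with limma 3.58.1. P-values are Benjamini-Hochberg adjusted over all features of a fit, called at 0.05. Site and diet fits held light cycle as a covariate. The alternatives were TMMwsp factors, DESeq2 1.42.0, centred log-ratios (limma, 0.5 added), no filter on low counts and the replicate number as a block. Each sample was left out in turn in the light cycle fits and their interactions with diet alone. The set of libraries as a block, variants counted on both sides, and the near-identical libraries kept apart were added after the data were seen. So was a cecum diet fit without antibiotics libraries of low background. The edgeR, DESeq2 and centred log-ratio fits were also run on simulated counts. The limma fit of numbers of variants was not.

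The variants named are the 12 highest over all samples, the 8 highest with antibiotics, the 4 in each direction with the smallest adjusted p in each diet and site comparison, and up to 6 past the threshold in each light cycle test. The members and lists were chosen with earlier results of these data known. Depth was 39157 to 73076 counts per library. Reads are not independent molecules.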

Additional observations from a re-analysis of the deposited data

Results flagged for a closer look

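In the colon with antibiotics under LD12/12, replicate 6 held 21 Muribaculaceae variants, while the other 5 samples held between 11 and 14. Its gap to the nearest sample was large against the range of the group. The same sample had the highest share of the family in its group, 0.504%. Among 40 groups of values examined this was the 1 sample that stood apart, and chance gives about 1 in 20 such groups.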

How the results depend on the processing

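The fall of the family's share and number of variants with antibiotics kept direction and call under all alternatives run. Leaving out each sample in turn was not run for this fall. Over the scalings the log2 change lay between -5.83 and -3.68 in the colon and between -6.07 and -5.25 in the cecum. The scalings also moved the median of all families, from -2.65 to 0.16 in the colon and from -0.26 to 0.12 in the cecum. The causes of the changes below were not tested.

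The difference of the antibiotics effect between sites passed at -1.76 with TMMwsp factors, -0.91 with DESeq2 and -1.74 on centred log-ratios. The chow share in the cecum against the colon turned to 0.29, 0.61 and 0.99 in that order, and that of the unclassified part to 0.67, 0.35 and 0.62. Muribaculum between sites turned to -0.23 on chow with the replicate block, and with antibiotics to -0.13 (TMMwsp), -0.34 (log-ratios) and -0.024 (replicate block). The site difference with antibiotics kept -0.47 without the filter but lost its call. The cecum interaction of light cycle and diet passed with TMMwsp (edgeR, adjusted p = 0.0403) and DESeq2 (adjusted p = 0.0123). In the cecum with antibiotics the number of variants by light cycle lost its call with the set block (limma, adjusted p = 0.985). No set joined the high light cycles with the low ones, so that fit could not test the difference between them.

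Uncalled differences from LD12/12 changed sign as follows. In colon chow LD0/24 became 0.20, LD8/16 0.33 and LD24/0 0.79 on log-ratios, and LD8/16 0.28 with the replicate block and 0.57 with the set block. In colon antibiotics LD0/24 became -0.36 (TMMwsp), -0.29 (DESeq2) and -0.62 (log-ratios), LD16/8 0.089 (DESeq2) and LD24/0 0.090 (set block). In cecum antibiotics LD16/8 became 0.24 (TMMwsp), 0.11 (log-ratios) and 0.056 (set block). LD24/0 in cecum chow passed at -1.94 on log-ratios.

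Counts of called members moved most. With antibiotics DESeq2 called 94 in the colon and 105 in the cecum, log-ratios 72 and 93, no filter 567 and 588, and variants counted on both sides 58 and 57. Between sites on chow the counts were 4 (DESeq2), 17 (log-ratios), 3 (replicate block) and 23 (both sides), and with antibiotics 2 (DESeq2), 15 (no filter) and 3 (replicate block). For light cycle in colon chow DESeq2, log-ratios and the replicate and set blocks called 0, and no filter 1168. In colon antibiotics DESeq2 called 1, both blocks 0 and no filter 39. Against LD12/12 the set block could estimate LD8/16 alone in colon chow, and could not estimate LD8/16 in colon antibiotics. In cecum chow DESeq2 called 0, log-ratios 1, the replicate block 1 and no filter 1237, and in cecum antibiotics log-ratios called 1 and no filter 46. Of the family's genera 1 was called between sites with antibiotics under TMMwsp, DESeq2 and log-ratios, and 1 for light cycle without the filter in colon antibiotics and in cecum chow. Counting presence from 3 counts left 63.2% of variants private and 28.2% at both sites.

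Leaving out 1 sample at a time moved the adjusted p for light cycle in the cecum with antibiotics between 0.0392 and 0.171, and it passed without LD24/0 replicate 5 (0.0392) or replicate 6 (0.0480). The differences from LD12/12 ranged from -0.31 to 0.39 for LD8/16 in colon chow, from -0.0088 to 0.23 for LD0/24 and from -0.34 to 0.10 for LD8/16 in colon antibiotics, and from -0.19 to 0.19 for LD16/8 and from -0.093 to 0.29 for LD24/0 in cecum antibiotics. Samples that share a replicate number did not all deviate together: between colon and cecum on chow the mean r was 0.063, above 0.1 in 11 of 29 pairs and 0.814 at the highest, so the numbers were not read as pairing. The most alike colon and cecum samples, replicates 4 of chow LD24/0, do share a number (Bray-Curtis distance 0.189). The smallest count of 2 limits what can be read on low variants.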
